A study of Mus musculus with 185 samples.

Results

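The genes described here make, carry, sense or limit retinoic acid, the active form of vitamin A. They are Dhrs3, Rdh10, Aldh1a1, Aldh1a2, Aldh1a3, Crabp1, Crabp2, Rara and Rarb, 9 genes of the 17171 in the deposited table, and all 9 have values there. Dhrs3 was chosen by its measured level, higher in Postn-traced than in activated Tcf21-traced cells of these data, so that contrast is given as a description and supports nothing. The other 8, genes of retinoid handling and receptors, were listed beside it with earlier results of these data known. Of the 9, each was above 5 TPM, the minimum in the study's methods, in at least 6 cells. TPM is the abundance of a gene's transcripts per length, scaled to the same total in every cell.

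The study followed fibroblasts of the mouse heart after infarction by permanent ligation of the left coronary artery and measured RNA in single cells caught with the Fluidigm C1 system. The labels put the cells into 9 classes. Cell names in them begin with Jul24, Jul29, Nov4 or Nov11, which are read here as 4 captures. Cells came from C57BL/6 backcrossed mice about 5 months old, of genotype Postn MCM/+; R26-eGFP in one line and Tcf21 MCM/+; R26-eGFP in the other, in which tamoxifen lets a Cre enzyme knocked into the Postn or Tcf21 gene switch on eGFP for good. Cells were sorted as negative for CD31 and CD45, surface markers of endothelial and myeloid cells, and tracing was read as eGFP in the captured cell.

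Infarct cells were taken 7 days after surgery, 152 in all. Capture Jul29 held 27 Postn-traced cells, 24 untraced cells labelled Postn-negative and 6 untraced cells labelled Postn-positive. Capture Nov4 held 44 activated Tcf21-traced cells and 19 untraced Postn-positive cells. In capture Nov11 there were 29 untraced cells of the scar and 3 untraced Postn-positive cells. The 33 resident cells were all in capture Jul24: 17 Tcf21-traced cells, 12 cells labelled negative for Postn, CD31 and CD45, and 3 and 1 cells of these kinds labelled Postn-positive. Those 12 are called resident CD31-/CD45- cells below, and 3 of them had Postn above 5 TPM. The labels do not give the mouse line of the untraced and scar cells. They call the 17 resident Tcf21-traced cells uninjured and say nothing of injury for the other resident cells. The study's text takes all 33 from hearts after a sham operation, whereas a legend places total interstitial controls in the region remote from the infarct. A legend states 3 mice per group, but the labels tie no cell to its mouse. No class therefore has replicates that a test could use, and an SD between cells only describes spread. Each class lies in 1 capture except the untraced Postn-positive cells, which are spread over 3. Classes named by Postn follow Postn by construction, and a Cre knock-in marks only cells whose Postn or Tcf21 gene was active while tamoxifen was given.

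Vitamin A reaches cells as retinol, which RDH10 oxidises to retinal, while DHRS3 turns retinal back into retinol. The ALDH1A enzymes oxidise retinal to retinoic acid, CRABP proteins bind it in the cytosol, CYP26 enzymes break it down, and RAR receptors paired with RXR carry its signal to DNA. In the embryonic heart the epicardium makes retinoic acid through ALDH1A2, and Dhrs3, Rarb and Cyp26a1 are known in many tissues as genes that retinoic acid turns on.

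Cells differed in how many genes they showed: the median number above 5 TPM was 3643 in Postn-traced cells, 2342 in Postn-negative cells, 3134 in activated Tcf21-traced cells and 2264 in resident Tcf21-traced cells. Of the scar cells 6 had fewer than 50% of the median of their capture, the lowest with 141 genes. Markers fitted a fibroblast sort: 180 of all cells had at least 3 of 6 fibroblast markers, with Dcn the most abundant, and 1 cell had 3 myeloid markers. No cell had 3 endothelial markers, but only 4 of the 6 listed could be scored, as Cdh5 and Cldn5 are absent from the deposited values. At least 3 of 6 markers were found in 21 cells for smooth muscle, 3 for pericytes, 2 for cardiomyocytes and 1 for epicardium. Xist, made from the inactive X chromosome of females, was above 5 TPM in 11 of the 27 Postn-traced cells, and a gene of the Y chromosome (Ddx3y, Eif2s3y, Kdm5d or Uty) in 10 others, with no cell in both sets. Among the 44 activated Tcf21-traced cells 3 had both Xist and a Y gene, and they were kept. Whether a capture site held more than 1 cell was not tested. Among the 30 untraced cells of capture Jul29 Xist was above 5 TPM in 0 (up to 11.6%) and a Y gene in 21, so the traced and untraced cells of that capture did not all come from the same mice. Scar cells had Xist in 18 of 29 and a Y gene in 0, and capture Jul24 had Xist in 0 of 33. These 5 genes were looked at after the data were seen. Percentages of cells carry exact Clopper-Pearson 95% intervals, which cover counting error only.

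Dhrs3 lies at chr4:144892827-144928209 on the plus strand (GENCODE, GRCm38), with no overlapping annotated gene. Its first promoter window, from RefSeq on build GRCm38.p6, is shown because the results turn on this gene. It spans chr4:144892577-144892876, plus strand, and capitals mark the 50 bases from the annotated start onward.

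Dhrs3 promoter: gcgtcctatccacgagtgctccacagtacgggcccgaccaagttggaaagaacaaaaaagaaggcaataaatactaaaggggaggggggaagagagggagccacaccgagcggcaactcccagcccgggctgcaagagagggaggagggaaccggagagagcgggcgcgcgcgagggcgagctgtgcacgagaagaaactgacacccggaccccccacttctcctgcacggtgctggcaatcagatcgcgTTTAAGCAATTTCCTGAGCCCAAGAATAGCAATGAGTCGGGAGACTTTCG

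The window was searched on both strands for the half-site AGGTCA, its variant AGTTCA, its further variant GGGTCA and, as the last variant, GGTTCA, and for any 2 of them in the same direction with 5 bases (NNNNN) between them, a spacing known for binding of RAR with RXR. None of the 3 Dhrs3 windows held a half-site, which says only that these letters are not in these windows. Of all 32851 promoter windows of 300 bases, 43.7% held a half-site and 0.0974% the spaced repeat. RefSeq windows were there for 6 of the 9 members, and for Crabp2, Aldh1a3 and Rdh10 none was found in the table. Among the 63 windows of 42 genes, members and genes of the wider retinoid lists together, 2 held the repeat. They were those of Rarb, a member, and of Cyp26a1, an enzyme that degrades retinoic acid. Both are shown for comparison with Dhrs3, with the half-sites in capitals, and each match is a description and not a tested site. The Rarb match lies at chr14:16575513-16575529 on the minus strand, the strand of the gene, 53 bases before the start that this window is set on. That of Cyp26a1 lies at chr19:37697776-37697792, 32 bases before the start, and is written as read on the strand opposite to the gene.

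Rarb element: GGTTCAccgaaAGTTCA
Cyp26a1 element: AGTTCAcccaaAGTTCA

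Dhrs3, the enzyme that returns retinal to retinol, was above 5 TPM in 115 cells (62.2%, 54.8% to 69.2%), more than any other member. In Postn-traced cells its level ran from 0 through a median of 11.57 to 14.13 in log2(TPM + 1), the scale of all levels below, with a mean of 10.90 ± 3.35 (SD, n = 27). It was above 5 TPM in 26 of those 27 cells (96.3%, 81% to 99.9%). Its mean in Postn-traced cells ranked 59 among the 17171 genes, so Dhrs3 was one of their most abundant RNAs per length. The traced cells were high with few exceptions, and the next highest share among classes with at least 6 cells was 69%, in scar cells.

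The other infarct classes each held cells without Dhrs3 and cells with much of it. In untraced Postn-positive cells the level ran from 0 through a median of 7.39 to 12.34, with a mean of 5.83 ± 4.94 (SD, n = 28) and 17 cells above 5 TPM (60.7%, 40.6% to 78.5%), pooled over captures Jul29, Nov4 and Nov11 with means of 7.62, 5.06 and 7.08. Activated Tcf21-traced cells ran from 0 through 4.06 to 13, mean 5.35 ± 5.21 (SD, n = 44), with 23 cells above 5 TPM (52.3%, 36.7% to 67.5%). Postn-negative cells ran from 0 through 2.27 to 11.93, mean 4.73 ± 4.92 (SD, n = 24), with 12 cells above 5 TPM (29.1% to 70.9%). The highest cells of these 3 classes lay within the range of the Postn-traced cells, so the classes overlapped at the top. Scar cells ran from 0 through 8.44 to 13.04, mean 6.44 ± 4.66 (SD, n = 29), with 20 cells above 5 TPM (69%, 49.2% to 84.7%). Without the 6 scar cells with few genes the share was 82.6% of 23 cells, and without the Xist cells it was 36.4% of 11 cells, so it depended on which cells were used.

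Resident cells were lower on average but not without Dhrs3. Resident Tcf21-traced cells ran from 0 through 1.57 to 11.46, mean 3.22 ± 4.35 (SD, n = 17), with 6 cells above 5 TPM (35.3%, 14.2% to 61.7%). Resident CD31-/CD45- cells ran from 0 through 2.86 to 11.50, mean 4.44 ± 3.78 (SD, n = 12), with 8 cells above 5 TPM (66.7%, 34.9% to 90.1%). Many of those 8 were low, since a minimum of 20 TPM left 33.3%. The 3 Postn-positive resident Tcf21-traced cells stood at 0, 10.21 and 10.70, and the single Postn-positive resident CD31-/CD45- cell stood at 11.45.

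**Figure D1:**
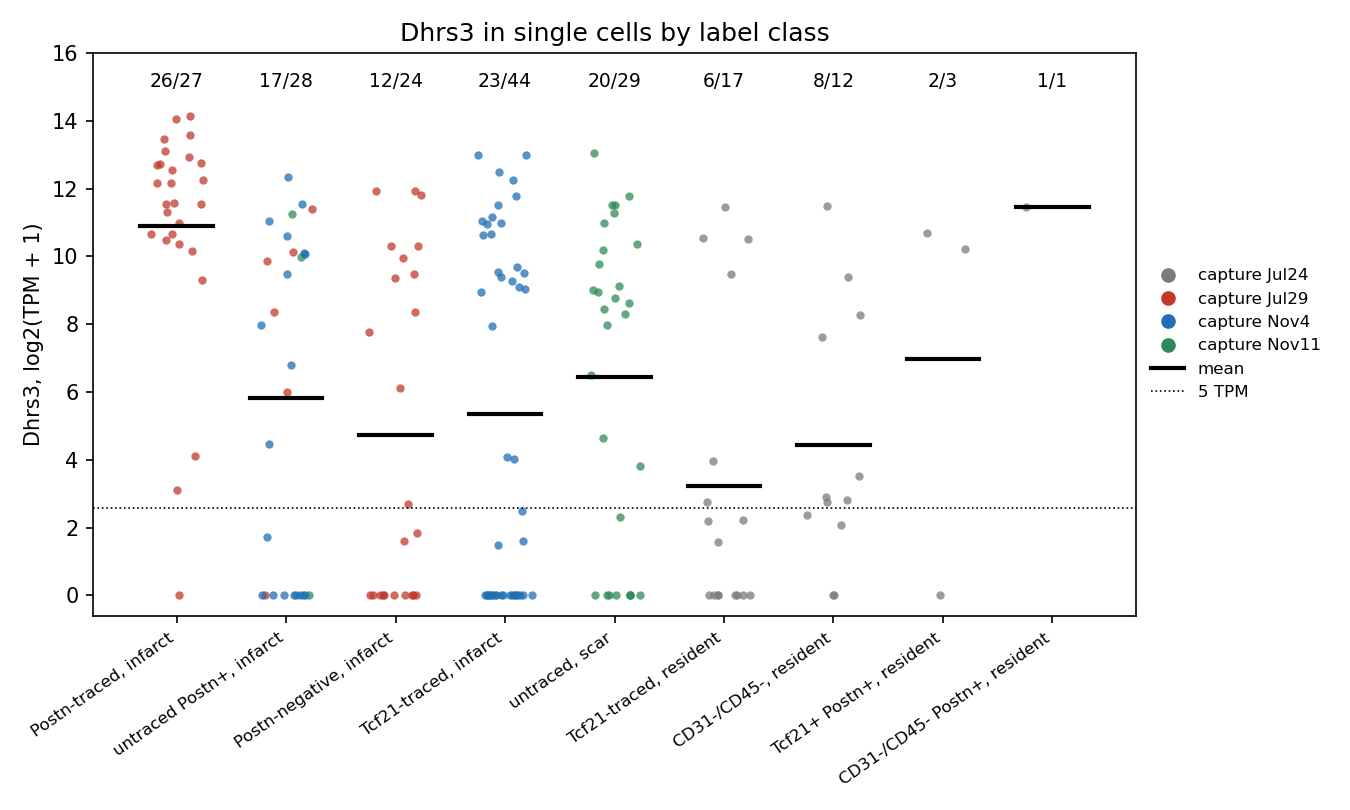
Dhrs3 level in log2(TPM + 1) in each cell, by label class and coloured by capture, with a bar at the class mean, a dotted line at 5 TPM and the number of cells above it on top. Postn-traced cells are the only class with at least 6 cells that has just 1 cell at 0.

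Most cells were either empty or rich in Dhrs3. Over all cells, 58 stood at 0, 12 between 0 and 5 TPM, 17 between 5 and 100 TPM and 98 above 100 TPM. Above 100 TPM were 24 of 27 Postn-traced cells (88.9%, 70.8% to 97.6%), 21 of 44 activated Tcf21-traced cells (47.7%, 32.5% to 63.3%) and 10 of 24 Postn-negative cells (41.7%, 22.1% to 63.4%). Among cells above 5 TPM alone, a subset taken after the data were seen, the median was 11.87 in 26 Postn-traced, 10.63 in 23 activated Tcf21-traced and 9.71 in 12 Postn-negative cells, with SDs of 2.59, 2.33 and 2.69. These cells were taken by their Dhrs3 level, in classes whose contrast picked the gene, so nothing is read from the medians.

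By class mean the 7 classes with at least 6 cells ran from Postn-traced through scar, untraced Postn-positive, activated Tcf21-traced, Postn-negative and resident CD31-/CD45- to resident Tcf21-traced cells. The first step, from Postn-traced to scar cells, was 4.46, larger than the SD of the traced cells and smaller than that of the scar cells. Without the 6 scar cells with few genes it was 3.06, less than both SDs, and without Xist cells 7.86, with a scar mean of 3.33. On the linear TPM scale it was 2.34, and by mean TPM activated Tcf21-traced cells (1148 TPM) lay above scar cells (1003 TPM). The size of this step and the place of scar cells in the order thus depended on the cells and the scale used. Each later step lay between 0.29 and 1.22 and within both SDs. Those SDs describe the spread of cells and not the error of a mean. With no replicate samples these neighbours cannot be ordered.

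The contrast that picked Dhrs3 sets Postn-traced cells (capture Jul29) against activated Tcf21-traced cells (capture Nov4). The difference in class means was 5.55, the second highest value (rank 2) of the 15733 genes above 5 TPM in a cell. Class and capture cannot be told apart in it. With means taken on the linear TPM scale, 5069 against 1148 TPM, it was 2.14. Of the 9 members, Dhrs3 and Aldh1a2 (1.14) were higher by over 1 log2 unit, beside 6.14% of all 15733 genes, and 0 members were lower by that much, beside 3.43%. With a pseudocount of 5 Aldh1a2 came to 0.80, beside 355 genes higher and 215 lower at that setting. On the linear TPM scale Rarb (3.93) and Rara (1.64) were higher too. Lower on that scale were Crabp1 (-5.05), Crabp2 (-4.95), Rdh10 (-1.94) and Aldh1a1 (-1.49), beside 3101 genes higher and 2900 lower. Here and in the comparisons below, linear values of genes found in few cells rest on those cells. Crabp1, for example, was above 5 TPM in 0 Postn-traced and 5 activated Tcf21-traced cells. Other markers differed too: summed means in Postn-traced and activated Tcf21-traced cells were 747 and 462 TPM for smooth muscle (5 of 6 above 5 TPM in a cell of each, Tagln the most abundant), 3.33 and 62.7 TPM for pericytes (3 of 6 and 5 of 6), 40.1 and 12.9 TPM for cardiomyocytes (2 of 6 and 3 of 6, mostly Tnnt2) and 11.6 and 1.97 TPM for epicardium (1 of 6 in each, mostly Wt1). Rgs5, Kcnj8, Myh6, Actc1 and Pln were among those at 0 in Postn-traced cells. Without the cells with at least 3 markers of a list other than fibroblast and smooth muscle the Dhrs3 difference was 5.29 (27 against 42 cells). The part of these lists in it was not tested. Nothing is read from the member counts, since the same contrast picked Dhrs3.

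Within capture Jul29, Postn-traced cells can be set against Postn-negative cells, which asks how traced infarct cells differ from untraced ones of that capture. Dhrs3 was higher by 6.18, rank 7 of 15733 genes and more than either SD, and on the linear TPM scale by 2.85. The traced cells are those of the contrast that picked the gene, so the value is no independent support. Against all 30 untraced cells of that capture, Dhrs3 was above 5 TPM in 26 of 27 traced and 17 of 30 untraced cells (56.7%, 37.4% to 74.5%). The Xist and Y counts part these classes too. Dhrs3 was above 5 TPM in 11 of the 11 traced cells with Xist and in 9 of the 10 with a Y gene. Neither Xist nor a Y gene passed 5 TPM in 6 traced and 7 Postn-negative cells. Without the Xist cells the Dhrs3 difference was 6.46 (16 against 24 cells), in which the part of sex or mouse was not tested. Smooth muscle markers also moved with it: 5 of the 6 passed 5 TPM in a traced cell and 3 of 6 in a Postn-negative cell, with a summed mean of 747 TPM in traced cells (Tagln, 514 TPM, the most abundant) and 87.2 TPM in Postn-negative cells (Smtn, 52 TPM), where Myh11, Cnn1 and Lmod1 were at 0 in every cell. The number of genes per cell was higher in the traced cells as well, and among cells with 2000 to 4000 genes the Dhrs3 difference was 6.52. That choice did not match the classes in number of genes, and the part of that number was not tested. Epicardial markers went the other way, with a summed mean of 11.6 TPM in traced cells (1 of 6 above 5 TPM in a cell, Wt1 the most abundant, Krt19, Krt8 and Lrrn4 at 0) and 106 TPM in Postn-negative cells (5 of 6, Krt19 the most abundant, Lrrn4 at 0), where 1 cell had at least 3 of them. Endothelial markers were lower in traced cells too, at 20.3 against 62.5 TPM, with Tek the most abundant in both classes. Cardiomyocyte markers were at 40.1 TPM in traced cells (2 of 6, mostly Tnnt2) and 22.2 TPM in Postn-negative cells (6 of 6, Pln the most abundant). Without the cells that had at least 3 epicardial, cardiomyocyte, pericyte, myeloid or endothelial markers the Dhrs3 difference was 6.55 (27 against 22 cells). This left out 2 Postn-negative cells and no traced cell, and no cell for endothelial markers. The part of these marker lists in the differences of Dhrs3 and of the other members was not tested.

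Counted over the members, 3 of 9 were higher in Postn-traced than in Postn-negative cells by over 1 log2 unit, beside 16.7% of all genes, and 2 of 9 lower, beside 2.35%. The higher ones were Dhrs3, Aldh1a2 (1.29) and Rarb (1.26), and the lower ones Aldh1a1 (-1.23) and Rdh10 (-1.08). Only Dhrs3 differed by more than the SDs of both classes, and with each cell centred on the median of its detected genes Aldh1a1 (-0.71) and Rdh10 (-0.56) fell short of 1 unit, while with means on the linear TPM scale they came to -2.49 and -3.95. On that scale Aldh1a2 came to 0.89, Rarb to 4.72 and Crabp1 to -4.87. The last 2 rest on few cells: Rarb was above 5 TPM in 5 traced and 0 Postn-negative cells, and Crabp1 in 0 traced and 1 Postn-negative cell. With a pseudocount of 5 Dhrs3 alone of the 5 members named as higher or lower passed 1 unit. The shares of all genes depended on the scale as well, with 2629 genes higher and 369 lower as reported. The counts were 5226 and 170 when cells were centred, 4345 and 2894 on the linear TPM scale, and 1276 and 221 with a pseudocount of 5. The median difference over the 9 members, which went both ways, was 0.02, against 0.19 over all genes.

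Activated against resident Tcf21-traced cells asks how cells of the Tcf21 lineage in the infarct differ from resident ones, though captures Nov4 and Jul24 part them as well, and injury and capture cannot be told apart. Dhrs3 was higher in the infarct by 2.14, rank 641 of 15733 genes and less than either SD. The value was 0.89 among cells with 2000 to 4000 genes and 1.05 without Xist cells, so its size depended on which cells were used. Smooth muscle markers moved with it: 5 of the 6 passed 5 TPM in an activated cell and 3 of 6 in a resident one, with a summed mean of 462 TPM (Tagln, 229 TPM, the most abundant) and 103 TPM (Smtn, 92.4 TPM). At least 3 of the markers were found in 10 activated and 0 resident cells, and Myh11, Cnn1 and Lmod1 were at 0 in every resident cell. Pericyte markers moved with it too, with a summed mean of 62.7 TPM and 5 of 6 above 5 TPM in an activated cell, and 2.98 TPM and 1 of 6 in resident ones, where Rgs5, Cspg4 and Mcam were at 0 and Kcnj8 was the most abundant in both classes. Endothelial and cardiomyocyte markers were lower in activated cells, at 16.3 TPM against 49.8 TPM (mostly Tek) and 12.9 TPM against 63.4 TPM (mostly Tnnt2). Without the cells with at least 3 markers of a list other than fibroblast and smooth muscle the Dhrs3 difference was 2.39 (42 against 17 cells). The part of all these marker lists was not tested. Higher by over 1 unit were 3 of 9 members, Dhrs3, Aldh1a3 (1.33) and Crabp2 (1.0), beside 16.9% of all genes, and lower 0, beside 2.65%. With a pseudocount of 5 Aldh1a3 (0.84) and Crabp2 (0.70) fell short of 1 unit, beside 1324 genes higher and 235 lower at that setting. On the linear TPM scale Crabp1 (5.05) and Rdh10 (2.65) were higher too. Lower on that scale were Rara (-3.19), Rarb (-1.59) and Aldh1a1 (-1.03), beside 4959 genes higher and 2729 lower. Here the member median was 0.47 and that of all genes 0.16.

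Cells of the class labelled untraced Postn-positive were in both captures that the picking contrast compares, 6 in Jul29 and 19 in Nov4, so Dhrs3 can be compared between captures within 1 label. These cells differed in more than capture, since Xist was above 5 TPM in 0 of the 6 and in 12 of the 19. In capture Jul29 the level ran from 0 through a median of 9.10 to 11.39, mean 7.62 ± 4.16 (SD, n = 6), and in capture Nov4 from 0 through 4.47 to 12.34, mean 5.06 ± 5.05 (SD, n = 19). The difference of 2.56 was less than either SD, was 0.10 on the linear TPM scale and was 6.41 among the 15 cells with 2000 to 4000 genes. The median number of genes above 5 TPM was 2234.5 in the Jul29 cells and 3361 in the Nov4 cells. The smooth muscle markers moved the other way, with a summed mean of 77.2 TPM in Jul29, where 2 of 6 passed 5 TPM and Myh11, Acta2, Cnn1 and Lmod1 were at 0, and of 1205 TPM in Nov4, where 4 of 6 passed and Myh11 and Cnn1 were at 0, with Tagln the most abundant in both. Pericyte markers moved with Dhrs3, with 227 TPM in Jul29 (2 of 6, nearly all Mcam, with Rgs5, Kcnj8 and Cspg4 at 0) and 14.6 TPM in Nov4 (3 of 6, Cspg4 the most abundant, Rgs5 and Kcnj8 at 0). Without the 1 cell that had at least 3 pericyte markers, in Nov4, the difference was 2.28, and without the Xist cells it was 1.64 (6 against 7 cells). The part of the smooth muscle and pericyte markers was not tested. Of the 9 members 3 were higher in capture Jul29 by over 1 unit (Dhrs3, Aldh1a1 at 1.93 and Rdh10 at 2.33), beside 7.35% of all genes. Lower were 3 (Aldh1a2 at -1.75, Rara at -1.51 and Aldh1a3 at -1.03), beside 21.3%. Aldh1a1 came to 0.88 on the linear TPM scale, where Rarb (1.26) was higher, beside 2382 genes higher and 6159 lower. Rara (-0.93) and Aldh1a3 (-0.60) fell short with a pseudocount of 5, beside 713 genes higher and 1814 lower. With 6 cells on one side, values of this size between captures say little about single genes.

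The last 2 comparisons stay within a capture. In capture Nov4, the Dhrs3 difference between untraced Postn-positive cells and activated Tcf21-traced cells was -0.29, well within both SDs. Its sign depended on the measure, with 0.41 between the medians over cells and 1.72 without the Xist cells. Of the members 0 were higher by over 1 unit, beside 5.05% of all genes, and 1 was lower, Crabp2 at -1.0, or -0.74 when cells were centred, beside 3.34%. On the linear TPM scale Rara (3.71), Rarb (1.69) and Aldh1a2 (1.68) were higher. Lower on that scale were Crabp2 (-5.57), Crabp1 (-5.05), Rdh10 (-3.41) and Aldh1a3 (-1.30), beside 2481 genes higher and 3558 lower. Smooth muscle markers had a summed mean of 1205 TPM in the untraced cells (4 of 6 above 5 TPM in a cell, Myh11 and Cnn1 at 0) and 462 TPM in the Tcf21-traced ones (5 of 6), with Tagln the most abundant in both. Pericyte markers had 14.6 TPM (3 of 6, Rgs5 and Kcnj8 at 0) and 62.7 TPM (5 of 6). Without the cells with at least 3 markers of a list other than fibroblast and smooth muscle the Dhrs3 difference was -0.27, and the part of the smooth muscle and pericyte markers was not tested. In capture Jul24, resident Tcf21-traced cells were below the resident CD31-/CD45- cells for Dhrs3 by -1.22, which turned to 0.16 on the linear TPM scale. Myeloid markers were lower in the Tcf21-traced cells as well, with a summed mean of 16.6 TPM (3 of 6 above 5 TPM in a cell, Cd68 the most abundant, Ptprc, Lyz2 and Emr1 at 0) against 920 TPM (5 of 6, Lyz2 the most abundant at 433 TPM), where 1 cell had at least 3 of them. Pericyte markers were lower too, at 2.98 TPM (1 of 6) against 56.2 TPM (2 of 6, Abcc9 the most abundant), with Rgs5, Cspg4 and Mcam at 0 in both. Higher were cardiomyocyte markers, at 63.4 TPM (2 of 6, mostly Tnnt2) against 0.44 TPM (1 of 6), with Myh6, Ryr2 and Tnni3 at 0 in both, and endothelial ones, at 49.8 against 9.36 TPM, all of it Tek. The part of these lists was not tested. Without the cell with myeloid markers the Dhrs3 difference was -0.87, short of 1 unit (17 against 11 cells). There 0 members were higher, beside 8.65% of all genes, and 2 were lower, Dhrs3 and Aldh1a1 (-2.26), beside 6.55%. Aldh1a1 came to -0.87 on the linear TPM scale. There Rarb (2.22) and Rara (1.65) were higher and Aldh1a2 (-2.65) lower, beside 4122 genes higher and 3123 lower. Dhrs3 came to -0.63 with a pseudocount of 5, beside 702 genes higher and 504 lower.

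**Figure D2:**
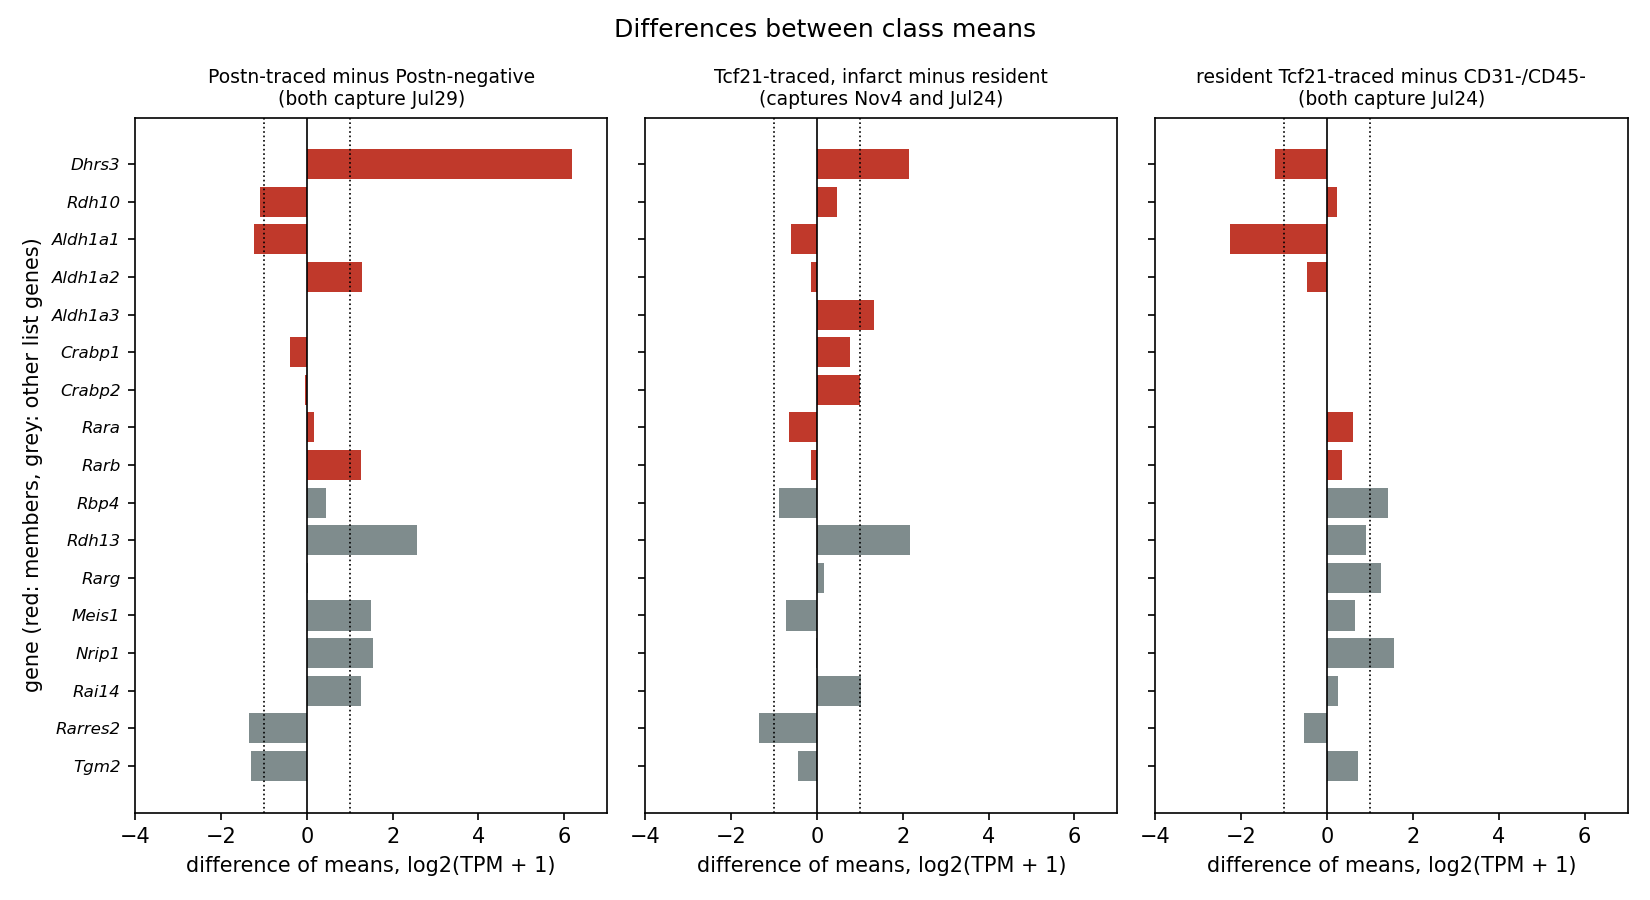
Differences in class means of log2(TPM + 1) for the 9 members (red) and 8 other genes of the retinoid lists (grey) in 3 of the comparisons, with dotted lines at -1 and 1. Dhrs3 lies farthest from 0 in the comparison of Postn-traced with Postn-negative cells, at 6.18.

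Among the enzymes that make retinoic acid, Aldh1a1 was found most often, in 76 cells. It was highest in resident CD31-/CD45- cells, running from 0 through a median of 7.90 to 10.75, mean 5.81 ± 4.46 (SD, n = 12), and above 5 TPM in 8 of them. Among the classes with at least 6 cells the lowest means were in scar cells, 1.85 ± 3.17 (SD, n = 29), and in Postn-traced cells, 2.29 ± 3.20 (SD, n = 27), both with a median of 0. Aldh1a1 thus had an order of class means unlike that of Dhrs3, although each of the 7 classes with at least 6 cells reached from 0 to above 8 and all overlapped.

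Aldh1a2, the main retinoic acid enzyme of the embryonic epicardium, was above 5 TPM in 45 cells. Its mean was highest in Postn-traced cells, 2.48 ± 3.30 (SD, n = 27), where it ran from 0 through a median of 0 to 9.47 and passed 5 TPM in 10 cells (37%, 19.4% to 57.6%). It was lowest in Postn-negative cells, 1.18 ± 2.60 (SD, n = 24), with 4 cells above 5 TPM (16.7%, 4.74% to 37.4%). The intervals overlap. By mean TPM the order was another, with 142 TPM in resident CD31-/CD45- cells and 61.3 TPM in Postn-traced cells. The other 5 classes with at least 6 cells had means from 1.34 to 1.93.

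Aldh1a3 was rarer and was seen in infarct cells only, 20 of 152, most often in activated Tcf21-traced cells (9 of 44, mean 1.33). None of the 33 resident cells had it above 5 TPM, a count that allows up to 10.6%. Pooled, at least 1 of the 3 Aldh1a genes was above 5 TPM in 16 of 27 Postn-traced, 15 of 24 Postn-negative, 28 of 44 activated Tcf21-traced, 12 of 29 scar and 10 of 17 resident Tcf21-traced cells, and in 17 of 28 untraced Postn-positive and 9 of 12 resident CD31-/CD45- cells. The intervals of Postn-traced (38.8% to 77.6%) and Postn-negative cells (40.6% to 81.2%) overlap. Cells with both Dhrs3 and an Aldh1a gene made up 15 of 27 Postn-traced cells (55.6%, 35.3% to 74.5%) and 7 of 24 Postn-negative cells (29.2%, 12.6% to 51.1%), with intervals that overlap. Dhrs3, picked for its level in the traced cells, sets this contrast, so nothing is read from it.

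Rdh10, which makes the retinal that DHRS3 removes, was above 5 TPM in 21 cells. Means were highest in Postn-negative cells, 1.43 ± 2.87 (SD, n = 24, 4 cells above 5 TPM), and in scar cells, 1.43 ± 2.28 (SD, n = 29, 6 cells). Postn-traced cells, with the most Dhrs3, had Rdh10 above 5 TPM in 2 of 27 and a mean of 0.35 ± 1.27 (SD). The difference between Postn-traced and Postn-negative cells was within their spread.

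The binding proteins were found in few cells. Crabp1 was above 5 TPM in 6 cells, 5 of them activated Tcf21-traced and 1 Postn-negative, with values up to 9.79. Crabp2 was found in 12 cells, of which 6 were activated Tcf21-traced and 3 scar cells, with values up to 10.09. Neither was seen in the 33 resident cells. A Crabp gene was above 5 TPM in 11 of 44 activated Tcf21-traced cells (13.2% to 40.3%) and in 1 of 27 Postn-traced cells (3.70%, 0.0937% to 19%).

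Of the receptors, Rara was above 5 TPM in 27 cells and Rarb in 15. In the 7 classes with at least 6 cells, means of Rara lay between 0.60 in activated Tcf21-traced and 1.25 in resident Tcf21-traced cells, with no class apart from the rest. Rarb, at chr14:16430839-16819156 on the minus strand, was found in 5 of 27 Postn-traced cells (18.5%, 6.30% to 38.1%), where its mean was 1.26 ± 2.56 (SD). It was found in 0 of the 24 Postn-negative cells of the same capture, which allows up to 14.2%. The intervals of these classes overlap, and the difference between them was not tested. The gene overlaps Top2b on the other strand, and as the strand of the reads is not stated, reads of the shared stretch cannot be told apart.

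**Figure D3:**
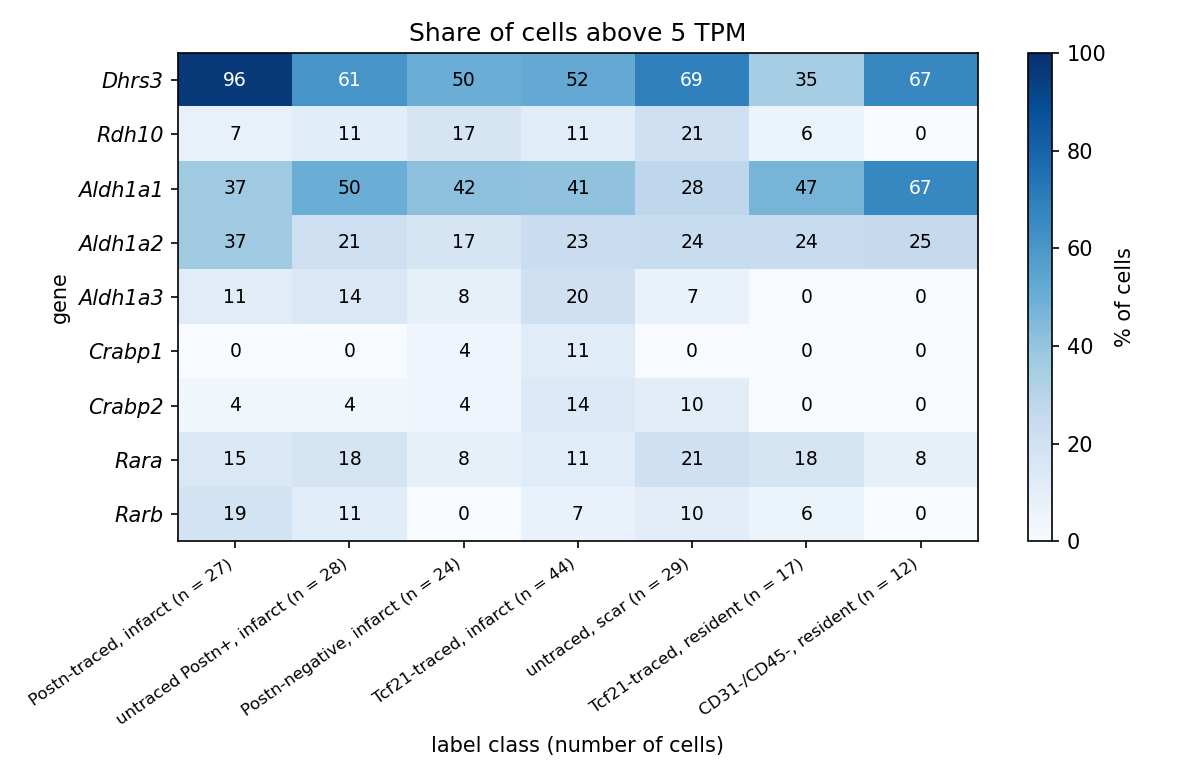
Percent of cells above 5 TPM for each of the 9 members in the 7 classes with at least 6 cells. Dhrs3 in Postn-traced cells (96.3%) is the highest share, and Aldh1a1 is the only other member found in most cells of any class.

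In the 3 Postn-positive resident Tcf21-traced cells Aldh1a2 and Rara were each found in 1, and of the other members only Dhrs3 was found there. A median cell had 2 of the 9 members above 5 TPM, and the most in any cell was 6. None was found in 24 cells, of which 8 were scar cells and 0 were Postn-traced. Dhrs3 set that last count, since 26 of the 27 traced cells had it.

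The wider retinoid lists used here name 44 genes, 32 of the pathway and 12 known targets, and 33 of them are in the table. Absent from it are Ttr, Stra6l, Rbp2, Rbp7, Rdh7, Sdr16c5, Cyp26c1, Rxrg, Hoxb1, Cdx1 and Stra8. Rdh13, a retinol dehydrogenase of mitochondria, was above 5 TPM in 58 cells. In Postn-traced cells it ran from 0 through a median of 2.95 to 9.55, mean 3.67 ± 3.61 (SD, n = 27), with 15 cells above 5 TPM, and in Postn-negative cells from 0 through 0 to 8.32, mean 1.1 ± 2.56 (SD, n = 24), with 4. In activated Tcf21-traced cells its mean was 3.16 ± 3.71 (SD, n = 44), with 19 cells above 5 TPM. The shares were 55.6% (35.3% to 74.5%), 16.7% (4.74% to 37.4%) and 43.2% (28.3% to 59%) in the order given, with intervals that overlap.

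The enzymes that degrade retinoic acid were scarce. Cyp26a1 was above 5 TPM in 4 cells, 1 of them Postn-traced and 2 scar cells, and Cyp26b1 in 4 cells. Lrat, which stores retinol as an ester, was found in 2 cells and the retinol uptake receptor Stra6 in 3. Of the targets, Rarres2, which encodes chemerin, was above 5 TPM in all 24 Postn-negative cells, mean 10.15 ± 1.23 (SD), and in 26 of 27 Postn-traced cells, mean 8.79 ± 2.55 (SD, n = 27). The ranges of these classes overlapped, and Rarres2 was higher in Postn-traced than in activated Tcf21-traced cells, by 0.78. Nr2f2, a nuclear receptor also called COUP-TFII, was above 5 TPM in 71 cells, most often in activated Tcf21-traced cells, 24 of 44, mean 2.79 ± 2.47 (SD), with means from 1.77 to 2.67 in the other 6 classes with at least 6 cells. Meis2, a homeobox gene, was found in 41 cells, with means in those classes from 0.65 in Postn-negative to 1.77 in untraced Postn-positive cells. Rdh14, a retinol dehydrogenase, was found in 23 cells, 8 of them Postn-traced, where its mean was 1.55 ± 2.62 (SD). None of these 3 differed by over 1 unit in any of the 6 comparisons. Rarg, a further receptor, was found most often in activated Tcf21-traced cells, 15 of 44, with a mean of 1.67.

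Against Postn-negative cells, Postn-traced cells were higher by over 1 unit for 4 of the 33 list genes: Rdh13 (2.57), Nrip1 (1.54), Meis1 (1.5) and Rai14 (1.26), though on the linear TPM scale Nrip1 (-0.67) and Rai14 (-1.04) turned and Meis1 came to 0.46. Lower were 2, Rarres2 (-1.35) and Tgm2 (-1.29), both within 1 unit (-0.83 and -0.77) when cells were centred. With a pseudocount of 5 Nrip1 (0.93), Rai14 (0.58) and Tgm2 (-0.72) fell short of 1 unit, and on the linear TPM scale Rarres2 (-0.60) did. Of all genes 16.7% were higher and 2.35% lower, as given above. In the contrast that picked Dhrs3, 1 list gene was higher, Meis1 at 1.86, beside 6.14% of all genes, and 0 were lower, beside 3.43%. On the linear TPM scale 11 of the members and list genes together were higher in it and 9 lower.

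Between activated and resident Tcf21-traced cells 2 of the 33 list genes were higher, Rdh13 (2.17) and Rai14 (1.02), beside 16.9% of all genes, and 1 lower, Rarres2 (-1.36, or -0.91 when centred and -0.76 on the linear TPM scale), beside 2.65%. Rai14 came to 0.69 with a pseudocount of 5. Between the captures of the untraced Postn-positive cells 3 were higher in Jul29 (Tgm2 at 1.57, Rarres2 at 1.56 and Rxrb at 1.41), beside 7.35% of all genes, and 5 lower, from Rbp4 at -1.26 to Fabp5 at -3.60, beside 21.3%. Rxrb came to 0.86 when centred, and with a pseudocount of 5 Rxrb (0.56), Rbp4 (-0.79) and Rai14 (-0.89) fell short of 1 unit. Rdh13, at -2.51, was among those 5, so its level differed by about as much between captures within 1 label as between Postn-traced and Postn-negative cells. In capture Nov4, Fabp5, a fatty acid binding protein that also carries retinoic acid, was higher in untraced Postn-positive than in Tcf21-traced cells by 2.17, the 1 list gene beside 5.05% of all genes, and Rarres2 was lower at -1.19 (-0.92 when centred), the 1 beside 3.34%. Among resident cells Nrip1 (1.56), Rbp4 (1.42) and Rarg (1.26) were higher in the Tcf21-traced ones, 3 of 33 beside 8.65% of all genes, and 0 were lower, beside 6.55%. Rarg came to 0.78 with a pseudocount of 5.

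Dhrs3 and Postn were set against each other cell by cell in infarct classes not labelled by Postn. Of the 44 activated Tcf21-traced cells, 23 had both above 5 TPM, 16 had Postn alone, 0 had Dhrs3 alone and 5 neither, and Pearson's r over these cells, which share capture Nov4, was 0.44. Of the 29 scar cells, 17 had both, 7 Postn alone, 3 Dhrs3 alone and 2 neither, with r of -0.02. The labels by Postn limit such counts in the other infarct classes. Of the 24 Postn-negative cells 3 had Postn above 5 TPM, 1 of them with Dhrs3, and 11 had Dhrs3 without Postn. In the Postn-labelled class with no tracing, 17 of the 28 untraced Postn-positive cells had both. Dhrs3 also went with the number of genes found in a cell in most infarct classes: r was 0.52 over activated Tcf21-traced, 0.63 over scar, 0.48 over Postn-traced and -0.04 over Postn-negative cells. Over resident cells it was -0.20 in Tcf21-traced and 0.06 in CD31-/CD45- ones. The value for scar cells rests on the 6 with few genes, since over the other 23 it was 0.17. No r between cells given here holds the number of genes constant.

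**Figure D4:**
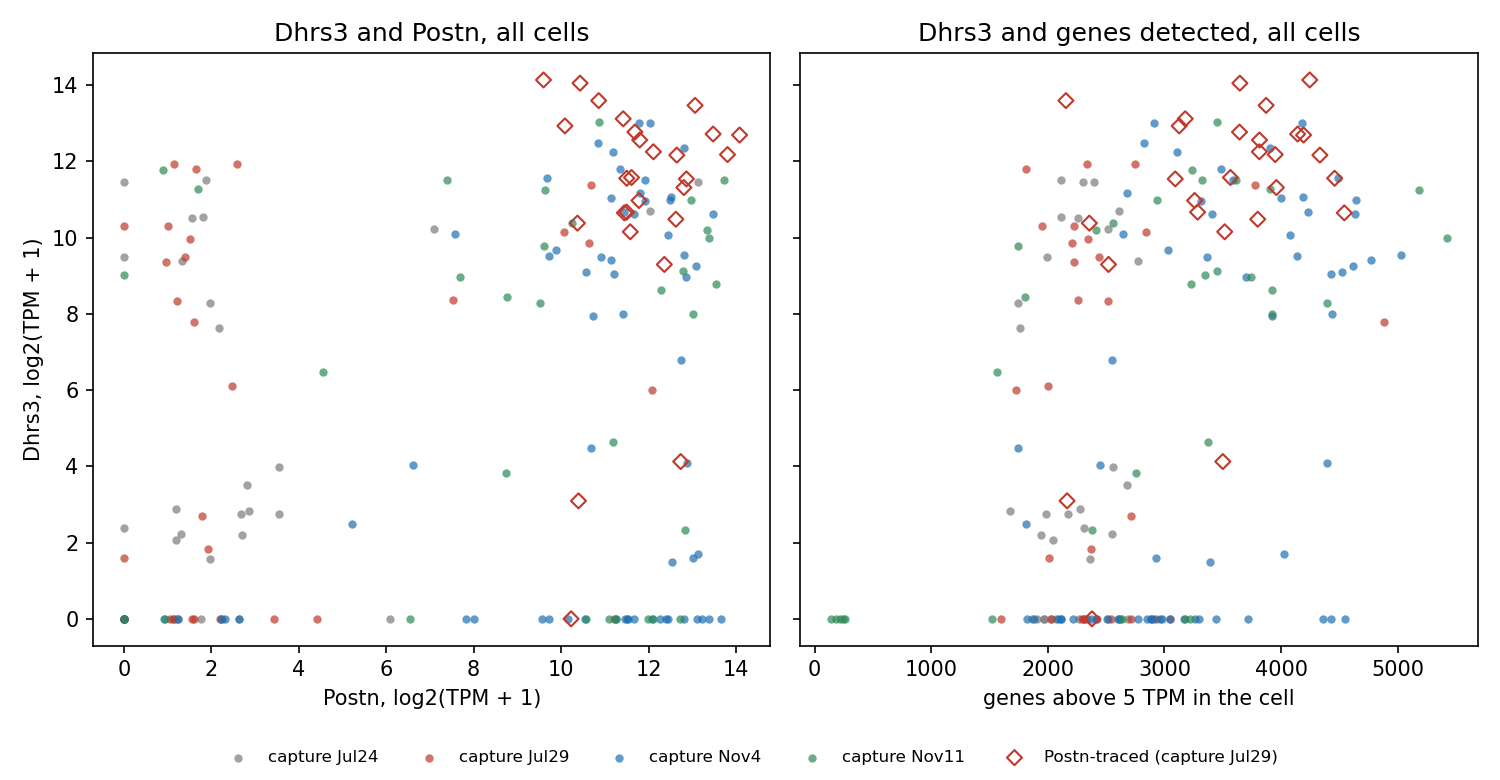
Dhrs3 level in log2(TPM + 1) in all cells against Postn level (left) and against the number of genes above 5 TPM (right), with colours for captures and open diamonds for Postn-traced cells. Cells with Dhrs3 but little Postn are mostly of captures Jul29 and Jul24, and the scar cells with the fewest genes stand at 0.

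Over the 57 cells of capture Jul29, the genes most like Dhrs3 among 5019 compared were Mfap2 (r = 0.68), Wls (0.59), Prdx4 (0.58), Lox (0.57) and Col1a2 (0.56). These cells share a capture and include the traced and Postn-negative classes, so a gene that parts those classes scores high. Among retinoid genes looked at, r with Dhrs3 was 0.29 for Rdh13, 0.20 for Nrip1, 0.05 for Aldh1a1 and -0.01 for Rarres2. Over the 7 class means the closest of 7734 genes were Crnkl1 (r = 0.99), 1600014C10Rik, Tro and Trim3 (0.98 each) and Tmem110 (0.97). All 5 were low genes, with class means of Crnkl1 from 0.53 to 2.86, and with 7 points drawn from 4 captures such values are easily reached among many genes. Over those class means r was 0.75 for Rdh13, 0.62 for Nrip1, -0.25 for Rarres2 and -0.54 for Aldh1a1.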

How the data were processed

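RNA of single mouse heart cells was measured in 9 label classes and 4 captures. The deposited table holds log2(TPM + 1) values that the authors made with Bowtie 1.0.0 and eXpress 1.5.1 on mm10, per the submitters' notes. Those notes speak of FPKM and the methods of TPM. Undone, the values sum to between 999257 and 1000000 per cell, so they are treated as TPM. The table has 17171 genes, and 3 further columns without a sample were not used. The methods give an average read depth, but the depth of each cell is unknown. A median of 2770 genes per cell passed 5 TPM.

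Class means and SDs of the log2 values, differences of class means (first minus second, over 6 comparisons) and shares of cells above 5 TPM with exact Clopper-Pearson 95% intervals were computed with Python 3.11.15, NumPy 2.4.6, pandas 2.3.3 and SciPy 1.17.1, drawn with Matplotlib 3.10.9, and tested on simulated data. A gene counts as higher or lower past 1 log2 unit, among the 15733 genes above 5 TPM in at least 1 cell. With no replicate samples no test was run.

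Named are the 9 members, the genes of 2 retinoid lists above 5 TPM in at least 20% of a class with 6 or more cells or past 1 log2 unit, and the 5 genes with the highest r with Dhrs3 over the capture Jul29 cells and over the class means. Cyp26a1, Cyp26b1, Lrat, Stra6, Ptn and Mdk were chosen after their values were seen. From the lists as first drawn up, 2 genes are not reported and not counted. Members and lists were chosen with earlier results of these data known. Alternatives changed the pseudocount, the mean, the minimum, the centring and the cells used.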

Additional observations from a re-analysis of the deposited data

How the results depend on the processing

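Of 54 alternative values for the Dhrs3 differences, 1 moved by more than the smaller SD between cells, which with linear TPM means gave 2.14 in place of 5.55 for Postn-traced minus activated Tcf21-traced cells. On that scale the difference for resident Tcf21-traced minus resident CD31-/CD45- cells turned its sign, 0.16 in place of -1.22. The ranges over alternatives were 2.14 to 7.51 for the former, 2.85 to 9.30 for Postn-traced minus Postn-negative, 0.89 to 2.59 for activated minus resident Tcf21-traced, 0.10 to 6.41 between the captures of untraced Postn-positive cells, -1.03 to 1.72 in capture Nov4 and -2.20 to 0.16 for the latter. The SDs are wide, so few values could count as moved. Between those captures the smaller SD was 4.16, and neither 0.10 nor 6.41 in place of 2.56 counted. The count of moved values is thus no measure of stability. Of 63 alternative shares 60 stayed within their intervals. The others were 36.4% of scar cells without Xist cells (11 cells), 33.3% of resident CD31-/CD45- cells at a minimum of 20 TPM and 100% of Postn-positive resident Tcf21-traced cells with 2000 to 4000 genes (2 cells). For the other members 134 of 240 alternative differences moved by less than the smaller SD, and 0 past 1 unit changed sign.

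Counts of the 42 retinoid genes in the deposited table, members and list genes together, past 1 log2 unit (3, 11, 6, 14, 3 and 5 in the order above) depended on the scale. Past 2 log2 units they were 1, 2, 2, 5, 1 and 1. With linear means they were 20, 20, 19, 22, 18 and 16. These were 11 higher and 9 lower, 10 and 10, 12 and 7, 9 and 13, 7 and 11 and 13 and 3. A pseudocount of 0.1 gave 15, 14, 11 and 9 in the first, the third, the fifth and the sixth comparison, and one of 5 gave 4, 3, 9 and 3 in the second, the third, the fourth and the sixth. Centring each cell gave 4 higher and 0 lower, 12 and 0, 11 and 0, 5 and 11, 4 and 0 and 3 and 2, in place of 3 and 0, 7 and 4, 5 and 1, 6 and 8, 1 and 2 and 3 and 2. It moved the median difference of all genes from 0.19 to 0.71, 0.16 to 0.61, -0.19 to -0.73 and 0 to 0.26 in the second to the fifth comparison, and the higher share of genes past 1 unit from 25.7% (1156 higher, 3348 lower) to 8.06% (509 and 5810) in the fourth and from 60.2% (795 and 526) to 85.2% (1475 and 256) in the fifth. In the third it gave 4624 genes higher and 190 lower in place of 2654 and 417. Linear means gave 3101 and 2900 in place of 966 and 539 in the first, 4959 and 2729 in the third, 2382 and 6159 in the fourth, 2481 and 3558 in the fifth and 4122 and 3123 in place of 1361 and 1030 in the sixth. The cause was not tested. The choices of cells with 2000 to 4000 genes, without other markers and without Xist, and those for the scar step and the scar correlation, were made after seeing the data.

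Cells of a class share unnamed mice, captures part most classes, and the depth of each cell is unknown, so no difference here has a replicate check. Genes found in few cells, such as Crabp1 with 6, cannot be compared between classes.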

Other observations

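Ptn and Mdk, which encode the related heparin-binding growth factors pleiotrophin and midkine, were chosen after their values were seen. Ptn in Postn-traced cells ran from 0 through a median of 10.36 to 13.56 in log2(TPM + 1), mean 9.79 ± 3.60 (SD, n = 27), with 25 cells above 5 TPM (92.6%, 75.7% to 99.1%). In Postn-negative cells of the same capture its mean was 0.93 ± 2.31 (SD, n = 24), with 4 cells above 5 TPM (16.7%, 4.74% to 37.4%). Activated Tcf21-traced cells lay between, with a mean of 3.95 ± 4.27 (SD, n = 44) and 23 cells above 5 TPM. Ptn was thus high in the class where Dhrs3 was high.

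Mdk, known elsewhere as a gene that retinoic acid turns on, had its highest mean log2 level among classes with at least 6 cells in Postn-traced cells too, 6.02 ± 3.81 (SD, n = 27), with 21 cells above 5 TPM, against 1.39 ± 2.63 (SD, n = 24) and 6 cells in the Postn-negative class. By mean TPM scar cells were higher, 390 against 342 TPM. In the 6 untraced Postn-positive cells of capture Jul29 Mdk was at 0. It is not among the listed targets. Of the 9 of those in the table, 3 were higher in Postn-traced than in Postn-negative cells by over 1 unit, beside 16.7% of all genes. Lower were 2, beside 2.35%. A response to retinoic acid was not tested. Within the 44 activated Tcf21-traced cells, 18 had both Dhrs3 and Ptn above 5 TPM and 16 neither, with r = 0.66, and for Dhrs3 and Mdk r was 0.33. Within Postn-traced cells r was -0.01 for Ptn and 0.18 for Mdk. The cells of each class share a capture and differ in the number of genes found, and no p is given.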
